A study of Mus musculus with 4 samples.

Results

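The 10 genes described here are 6 Wnt ligands (Wnt2, Wnt2b, Wnt4, Wnt5a, Wnt7b and Wnt11) and 4 genes that respond to Wnt signalling (Axin2, Lef1, Tcf7 and Nkd1). They were chosen by gene symbol from the 32285 genes of each matrix, and each symbol was found in all 4 libraries. None of the 10 passed the edgeR test between mutant and control libraries, whether over all sorted lung cells, over mesenchymal-like cells alone or over fibroblast-like cells alone. The sources of the ligands differed by cell class: Wnt2 was highest in fibroblast-like cells, Wnt2b in mesothelial-like cells, Wnt7b in epithelial-like cells, and Wnt5a in 1 of 3 smooth muscle-like clusters and in some fibroblast-like ones. At other clustering settings, some clusters sharing leading genes with that smooth muscle-like cluster were unnamed or named fibroblast-like. The response genes split into 2 patterns, with Lef1 and Tcf7 low in the mesothelial-like cells in which Axin2 and Nkd1 were found.

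Wnt ligands are lipid-modified secreted proteins that bind Frizzled receptors. In the canonical branch, Lrp5 and Lrp6 act as co-receptors, beta-catenin is spared from destruction, and it acts in the nucleus with DNA-binding proteins of the TCF/LEF family. Wnt2 and Wnt2b are mesenchymal ligands known for specifying the lung in the mouse foregut, Wnt7b is a ligand of the lung epithelium, and Wnt5a, Wnt11 and Wnt4 are best known for signalling through other branches, Wnt4 in a context-dependent way. Axin2 and Nkd1 encode feedback inhibitors that canonical signalling induces, and Lef1 and Tcf7 encode TCF/LEF factors that are themselves induced in many tissues.

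In mutant embryos, floxed Myrf, which encodes a membrane-bound transcription factor, was targeted in cells in which tamoxifen had activated the Wt1creERT2 recombinase, and these cells were marked by the R26TdTomato reporter. The embryos came from matings of Myrf Fl/Fl;R26TdTomato/R26TdTomato with Wt1creERT2;Myrf Fl/Fl mice, with tamoxifen given into the peritoneum at E12.5 and lungs collected at E16.5. Controls are described as Cre-positive tdTomato-positive embryos treated in the same way, and the labels do not give their Myrf genotype further. The matings as written bring floxed Myrf from both parents, so Cre-positive embryos from them would carry the mutant genotype. What sets the controls apart genetically is therefore not settled by the labels, and every value below compares libraries by their label as mutant or control. Each genotype had 2 libraries of sorted tdTomato-positive, DAPI-negative lung cells (Chromium 3' V3), each from a pool of lungs whose genotype was read from lung and cell shape before dissociation and from PCR afterwards. The Wt1 driver limits the model to cells that used Wt1 while tamoxifen was active and to their descendants. The sort thus does not sample ligand-making or responding cells of unmarked lineages except as passengers. The labels do not say whether replicate libraries came from separate pools or days, so p-values measure the spread between these libraries, which may be partly technical.

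In all, 8470 cells passed the filters: 411 and 4275 in mutant libraries 1 and 2, and 281 and 3503 in control libraries 1 and 2, with 20954282 and 80755665 UMIs in the mutant and 8175944 and 58045818 UMIs in the control libraries. The labels call the cells mesothelial, but mesothelial-like cells were 2 of 411 and 3 of 4275 in the mutant libraries and 113 of 281 and 741 of 3503 in the control libraries. The 10 mesothelial markers summed to 279 and 114 UMIs per 1000000 (CPM) in the mutant libraries and to 2360 and 1794 CPM in the control libraries. Smooth muscle-like cells made up 79.3 and 44.1% of the mutant and 11 and 6.99% of the control libraries, and fibroblast-like cells 12.9 and 52.3% of the mutant and 27 and 12% of the control libraries. In control library 2, 58.6% of cells fell into an unnamed cluster in which 72.4% of the marker genes were within 2-fold of the rest of its library, against at most 4.98% in the other libraries. Mesothelial was the class that fitted this cluster best, with 6 of the 10 mesothelial markers raised, and its cells in control library 2 had 1633 CPM of mesothelial markers beside 3866 CPM in the mesothelial-like cells there. Its 4992 CPM of fibroblast markers there did not set it apart, beside 6755 CPM in the mesothelial-like cells of that library. The cluster was left unnamed because its markers lay close to the rest of its library. The 741 cells may thus not be all of the mesothelial cells in that library. Among cells with UMIs of Xist or of a Y-linked gene but not both, 65.3 and 82.8% of mutant and 24.2 and 56.2% of control cells had Xist, so the pools differed in the sex of their cells. Over all sorted cells Myrf itself had 19.1 and 7.22 CPM in the mutant libraries, against 76 and 48.5 CPM in the control libraries. That difference did not pass (log2 change -2.22 ± 0.41 SE, edgeR adjusted p = 0.131, called in 6 of 12 alternatives with adjusted p between 5.98e-10 and 0.156), and 3' UMIs outside a deleted exon do not check the deletion. Within classes the direction was not one: fibroblast-like cells had 2.05 and 2.11 CPM of Myrf in mutants and 9.53 and 5.14 CPM in controls, but smooth muscle-like cells of both mutants were above those of both controls, with 22.2 CPM in mutant library 1 and 469 UMIs among 37558168 in mutant library 2, against 4.33 and 9.19 CPM in controls. Over the fibroblast-like, smooth muscle-like and pericyte-like cells together Myrf had 20.5 and 7.16 CPM in mutants and 7.28 and 6.69 CPM in controls, with overlap (log2 change 1 ± 0.45 SE, edgeR adjusted p = 0.655, and 1.54 and called without mutant library 2).

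Promoter windows in RefSeq (GRCm38.p6) were found for 8 of the 10 genes, and those of Axin2 and Lef1 are shown because these response genes parted between cell classes. Each is the 250 bases before the RefSeq start closest to the annotated gene start, on the plus strand, at chr11:108920099-108920348 for Axin2 and at chr3:131110073-131110322 for Lef1, with capitals marking GC boxes (GGGCGG or CCGCCC).
Axin2: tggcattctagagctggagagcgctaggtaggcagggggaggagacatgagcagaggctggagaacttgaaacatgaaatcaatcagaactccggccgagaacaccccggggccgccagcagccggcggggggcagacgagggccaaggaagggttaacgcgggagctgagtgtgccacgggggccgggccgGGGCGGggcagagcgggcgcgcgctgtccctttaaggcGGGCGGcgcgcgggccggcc
Lef1: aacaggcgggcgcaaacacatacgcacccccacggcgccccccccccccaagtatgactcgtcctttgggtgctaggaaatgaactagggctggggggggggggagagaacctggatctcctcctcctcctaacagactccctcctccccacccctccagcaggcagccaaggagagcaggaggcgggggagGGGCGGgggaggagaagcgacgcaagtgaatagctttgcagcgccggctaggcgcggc
The TCF/LEF motif, searched as CTTTGAA or CTTTGAT on both strands, was in neither window. Of the windows closest to the gene start of the 8 genes, that of Wnt11 held 1 match, 51 bases before its start. These windows were not alike in place. The RefSeq start used was at the annotated gene start for Axin2, 148 bases before it for Lef1 and 6279 bases inside the gene for Nkd1. The motif occurred in 7.48% and a GC box in 32.7% of all 32851 windows of 250 bases.

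Over all sorted cells, 1 of the 10 genes was above the controls in both mutant libraries and 3 were below. Among all 16246 genes tested, 12.6% were above and 17.8% below in this way, and 0.357% were called by edgeR at an adjusted p under 0.05. Of the 10 genes, 0 were called, and Wnt2b alone had an unadjusted p under 0.05, as 8.74% of all genes did, and was the 1 gene of the 10 that DESeq2 called. The median log2 change of the 10 genes was -0.18, beside 0.03 for all genes tested. In such sums, fewer cells of a type and less RNA per cell cannot be told apart. CPM sums of single libraries for all 10 genes are plotted by cell set.

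**Figure D1:**
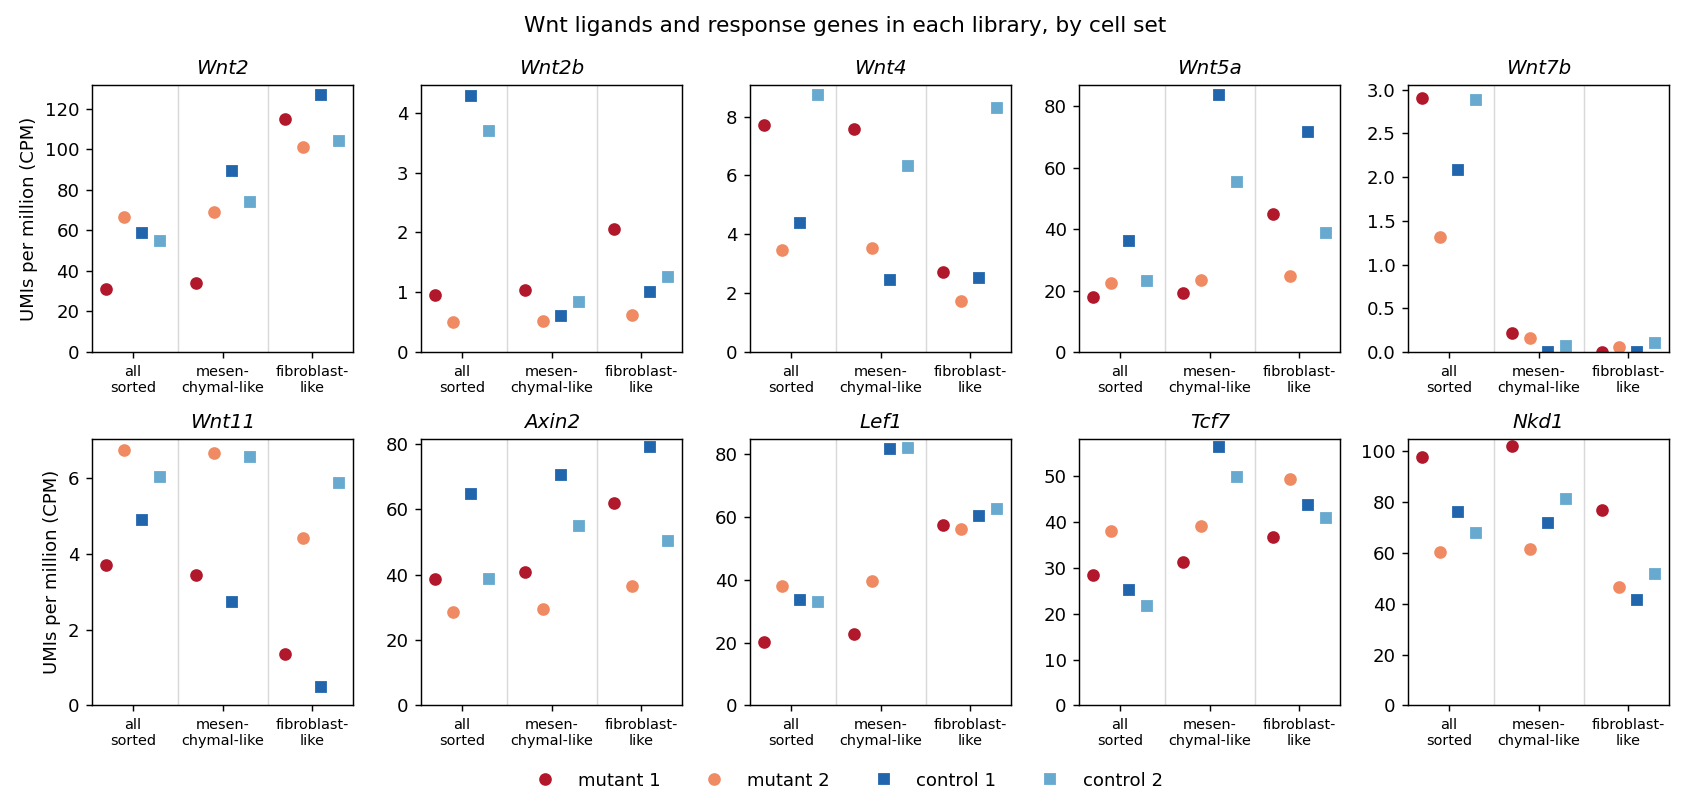
UMIs per 1000000 (CPM, vertical axis, linear, own scale for each gene) of the 6 ligands and 4 response genes in each library, for all sorted cells, for mesenchymal-like cells (fibroblast-like, smooth muscle-like and pericyte-like) and for fibroblast-like cells. Circles are the mutant and squares the control libraries, 1 point per library. Wnt2b over all sorted cells, at 0.954 and 0.495 CPM in mutant and 4.28 and 3.69 CPM in control libraries, stood farthest apart on the log scale.

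Wnt2 (chromosome 6, 17988940 to 18030585, minus strand, mm10), the main mesenchymal ligand of the early lung, had 31.0 and 66.7 CPM in mutant libraries 1 and 2 and 58.6 and 54.6 CPM in control libraries 1 and 2. Mutant library 1 was the lowest and mutant library 2 the highest, so the groups overlapped (log2 change -0.08 ± 0.45 SE, edgeR adjusted p = 0.991). Within fibroblast-like cells Wnt2 had 115 and 101 CPM in mutants and 127 and 104 CPM in controls, where all 4 libraries lay close together and the fitted change was -0.02 ± 0.26 SE (edgeR adjusted p = 1). Within smooth muscle-like cells it had 27.0 and 36.5 CPM in mutants and 34.6 and 28.2 CPM in controls, again with overlap. Mesothelial-like cells of the controls had 44.2 and 37.2 CPM, against 0 and 4.72 CPM in epithelial-like cells of the same libraries. Pericyte-like cells held 1 UMI of Wnt2 in mutant library 2 and none in either control library, where 3 UMIs would have been 20.5 and 16.9 CPM. Fibroblast-like cells thus held 26.0 and 73.8% of the mutant and 53.0 and 31.4% of the control Wnt2 UMIs, while smooth muscle-like cells held 69.3 and 25.4% of the mutant and 8.35 and 5.33% of the control ones. These shares moved with the share of each class in a library, while the level within a class varied less. Over mesenchymal-like cells, which join these 2 classes and the few pericyte-like cells, Wnt2 had 34.0 and 69.1 CPM in mutants and 89.2 and 74.1 CPM in controls. Mutant library 1 stood lowest there and mutant library 2 close to the controls (log2 change -0.52 ± 0.41 SE, edgeR adjusted p = 0.923, and 0.0122 at a log2 change of -1.27 without mutant library 2, the lowest of 13 alternatives, which reached 1). A fit without a mutant library sets 1 mutant library against 2 controls and takes the spread from the controls, so here and below such a call assumes that the lone mutant library would vary as they did.

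The fibroblast-like clusters, each called by a gene among its leading ones, differed among themselves in Wnt2. The Tcf21 cluster, called by a factor of lung fibroblasts, had 144 and 115 CPM in mutants and 152 and 129 CPM in controls, and the Lef1 cluster had 86.7 and 87.7 CPM in mutants and 79.8 and 120 CPM in controls. The Dpt cluster, of matrix fibroblast-like cells, had 24.3 CPM in mutant library 2 and 11.2 CPM in control library 2, the only libraries with at least 10 of its cells. Among smooth muscle-like clusters, the one led by Des, in which the chemokine genes Ccl2, Ccl7 and Cxcl10 were also among the leading genes, had 27.4 and 47.3 CPM in mutants and 45.4 CPM in control library 2. The Actc1 cluster had 11.3 and 15.1 CPM in mutants, and controls had under 10 of its cells. The Des cluster was named from 4 of the 9 smooth muscle markers (Tagln, Des, Actg2 and Tnnt2). Myh11, Acta2, Cnn1 and Mylk were not among those raised. In the Actc1 cluster all 9 were raised, but Myl4 of the cardiac marker list was among its leading genes. For both, smooth muscle-like is thus a name of the nearest list.

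Wnt2b (chromosome 3, 104945272 to 104961921, minus strand), the close relative of Wnt2, had 0.954 and 0.495 CPM in mutants and 4.28 and 3.69 CPM in controls over all sorted cells. Both mutant libraries were below both controls, by a fitted log2 change of -2.45 ± 0.47 SE, and the change was not called (edgeR adjusted p = 0.139). The change was called in 4 of 12 alternatives (adjusted p between 0.00192 and 0.322), among them DESeq2 and the fit without mutant library 1, which gave -2.77 with 1 mutant library left. Mesothelial-like cells carried the gene in controls, with 7.52 CPM (95% exact Poisson interval 5.11 to 10.7) and 8.29 CPM (6.93 to 9.83), and held 88.6 and 61.7% of its UMIs there. Fibroblast-like cells had 2.05 and 0.61 CPM in mutants and 1 and 1.26 CPM in controls, and over mesenchymal-like cells the fitted log2 change was 0.05 ± 0.73 SE (edgeR adjusted p = 0.999). The groups overlapped in that set, which leaves out the mesothelial-like cells together with the unnamed cluster and the epithelial-like and endothelial-like cells. The unnamed cluster held 31.8% of the Wnt2b UMIs of control library 2, at 2.77 CPM, and with it alone left out the log2 change over all other cells was -2.50 (edgeR adjusted p = 0.118). With the mesothelial-like cells alone left out, a choice made after seeing the data, Wnt2b had 0.962 and 0.496 CPM in mutants and 0.986 CPM (95% Poisson interval 0.269 to 2.52) and 1.95 CPM (1.55 to 2.42) in controls. Both mutants were then still below both controls, mutant library 1 by little. With the unnamed cluster left out as well, it had 0.969 and 0.498 CPM in mutants and 0.799 and 0.798 CPM in controls, and the groups overlapped. The 5 mesothelial-like cells of the mutant libraries held no Wnt2b UMI, which at their depth says little. The mesothelial marker sums given above moved with Wnt2b over all sorted cells.

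Wnt7b (chromosome 15, 85535437 to 85582473, minus strand), the ligand of the lung epithelium, had 2.91 and 1.32 CPM in mutants and 2.08 and 2.88 CPM in controls, with overlap (log2 change -0.28 ± 0.50 SE, edgeR adjusted p = 0.980). Epithelial-like cells had 27.9 and 43.6 CPM in mutants and 36.3 and 42.5 CPM in controls, and their 95% Poisson intervals overlapped across all 4 libraries. The value of control library 1 rests on 8 UMIs, and its epithelial-like cells stood apart: epithelial markers summed to 2352 CPM in them, against 21808 and 29105 CPM in mutants and 18101 CPM in control library 2. They also had 808 CPM of mesothelial and 1489 CPM of fibroblast markers, and the part of these in that value was not tested. These passengers of the sort numbered 16 and 55 cells in mutants and 22 and 18 in controls, yet held 91.8 and 88.8% of the mutant and 47.1 and 32.3% of the control Wnt7b UMIs. Mesothelial-like cells of controls had 2.18 and 3.14 CPM and held 52.9 and 29.9% of the control UMIs, and the unnamed cluster held 37.1% in control library 2. Fibroblast-like cells held 0 and 2 Wnt7b UMIs in mutants and 0 and 1 in controls. The epithelial markers summed to 76 and 40.1 CPM in the mesothelial-like cells of the controls and to 8.52 and 26.8 CPM in their fibroblast-like cells, and their part in the mesothelial-like level was not tested.

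**Figure D2:**
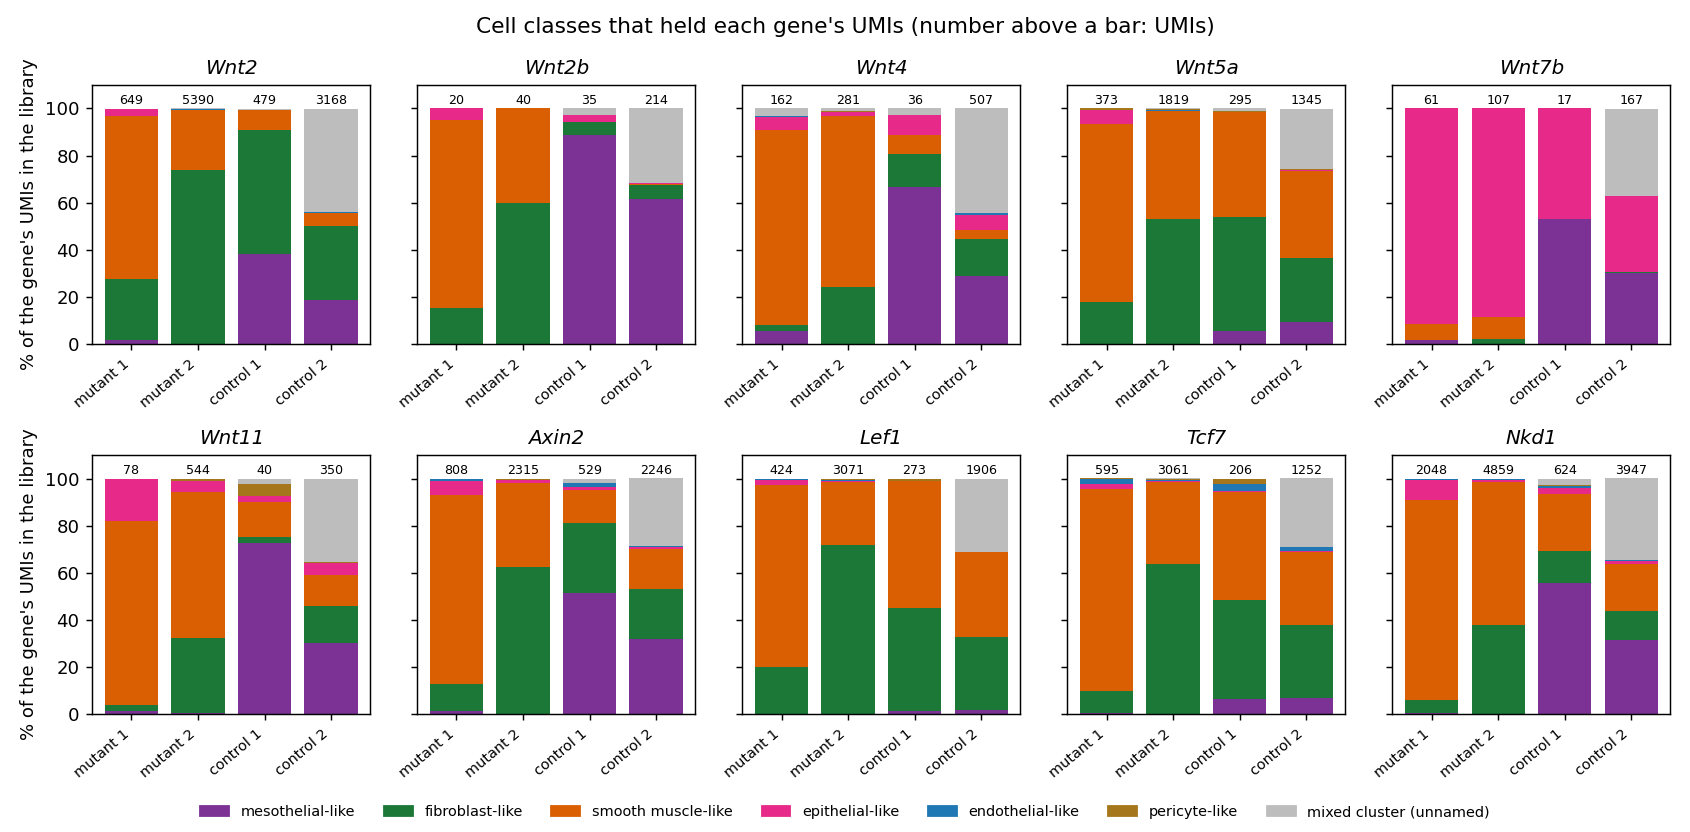
Share of each gene's UMIs in a library (vertical axis, percent) that lay in cells of each class, 1 stacked bar per library, with the gene's UMIs in that library above the bar. Mesothelial-like cells held most control UMIs of Wnt2b and almost none of Lef1 (1.1 and 1.52% in controls). The grey part, the unnamed cluster, was large in control library 2.

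Wnt5a (chromosome 14, 28504750 to 28527448, plus strand), a ligand of the distal lung mesenchyme best known for beta-catenin-independent signalling, had 17.8 and 22.5 CPM in mutants and 36.1 and 23.2 CPM in controls over all sorted cells. Both mutants were below both controls, mutant library 2 by little (log2 change -0.43 ± 0.30 SE, edgeR adjusted p = 0.913). Over mesenchymal-like cells it had 19.3 and 23.3 CPM in mutants and 83.7 and 55.5 CPM in controls. Here the groups stood well apart, with a fitted log2 change of -1.59 ± 0.31 SE that was not called (edgeR adjusted p = 0.192, and between 2.55e-05 and 1 over 13 alternatives, 4 of which called it). Of these calls, 2 came from leaving out a mutant library (-1.33 without library 1 and -1.85 without library 2), and they rest on the spread of the controls, since 1 mutant library was left in each. The smooth muscle-like class differed in make-up between the genotypes: the Des cluster held 236 of 326 and 1208 of 1885 of its cells in mutants, and the Ednrb cluster held 30 of 31 and 221 of 245 in controls. For any gene, values of the whole class thus set unlike mixes of cells side by side. Wnt5a was high in the Ednrb cluster, at 52.3 and 85.9 CPM in mutants and 117 and 89.3 CPM in controls, and low in the Des cluster, at 11.6 and 5.81 CPM in mutants and 0 UMIs in the 19 cells of control library 2. Within the Ednrb cluster alone the fitted log2 change was -0.39 (edgeR adjusted p = 1), and with the Des and Actc1 clusters left out of the mesenchymal-like cells it was -0.67 (edgeR adjusted p = 1).

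Among fibroblast-like cells Wnt5a had 45.0 and 24.6 CPM in mutants and 71.7 and 38.7 CPM in controls, where mutant library 1 lay above control library 2 (log2 change -0.64 ± 0.37 SE, edgeR adjusted p = 1). Its level there came mostly from the Tcf21 cluster, with 81.1 and 33.4 CPM in mutants and 99.4 and 56.0 CPM in controls, and little from the Lef1 cluster, with 4.56 and 15.4 CPM in mutants and 17.7 and 10.9 CPM in controls. The small Dpt cluster had 58.3 CPM in mutant library 2 and 61.8 CPM in control library 2. Of the mesothelial-like clusters of control library 2, the one led by Aqp5 and Col6a5 had 38.8 CPM, and the one led by Upk3b and Muc16 had 3.94 CPM.

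Wnt4 (chromosome 4, 137277489 to 137299726, plus strand) had 7.73 and 3.48 CPM in mutants and 4.40 and 8.73 CPM in controls, with overlap (log2 change -0.29 ± 0.50 SE, edgeR adjusted p = 0.980). In control library 2 its level was highest in 2 small clusters, at 36.5 CPM in the Dpt fibroblast-like cells and 35.9 CPM in the Aqp5 mesothelial-like cells. In mutants the Des cluster held most of it, at 9.35 and 7.30 CPM. In fibroblast-like cells Wnt4 had 2.73 and 1.73 CPM in mutants and 2.51 and 8.29 CPM in controls, so that control library 2 alone stood apart (log2 change -1.44 ± 0.66 SE, edgeR adjusted p = 1). Of its 79 fibroblast-like UMIs in that library, 62 lay in the Dpt cluster, which had 1 and 14 cells in mutants and 0 and 68 in controls.

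Wnt11 (chromosome 7, 98835112 to 98855195, plus strand), a ligand known from convergent-extension movements, had at most 13.7 CPM in any class with at least 10 cells in a library. Over all sorted cells it had 3.72 and 6.74 CPM in mutants and 4.89 and 6.03 CPM in controls, with the mutants at both extremes (log2 change 0.04 ± 0.47 SE, edgeR adjusted p = 0.998). Mesothelial-like cells of controls had 7.04 and 6.59 CPM, and smooth muscle-like cells had 3.67 and 8.97 CPM in mutants and 5.19 and 7.69 CPM in controls. It rested on 78 and 544 UMIs in mutants and 40 and 350 in controls.

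**Figure D3:**
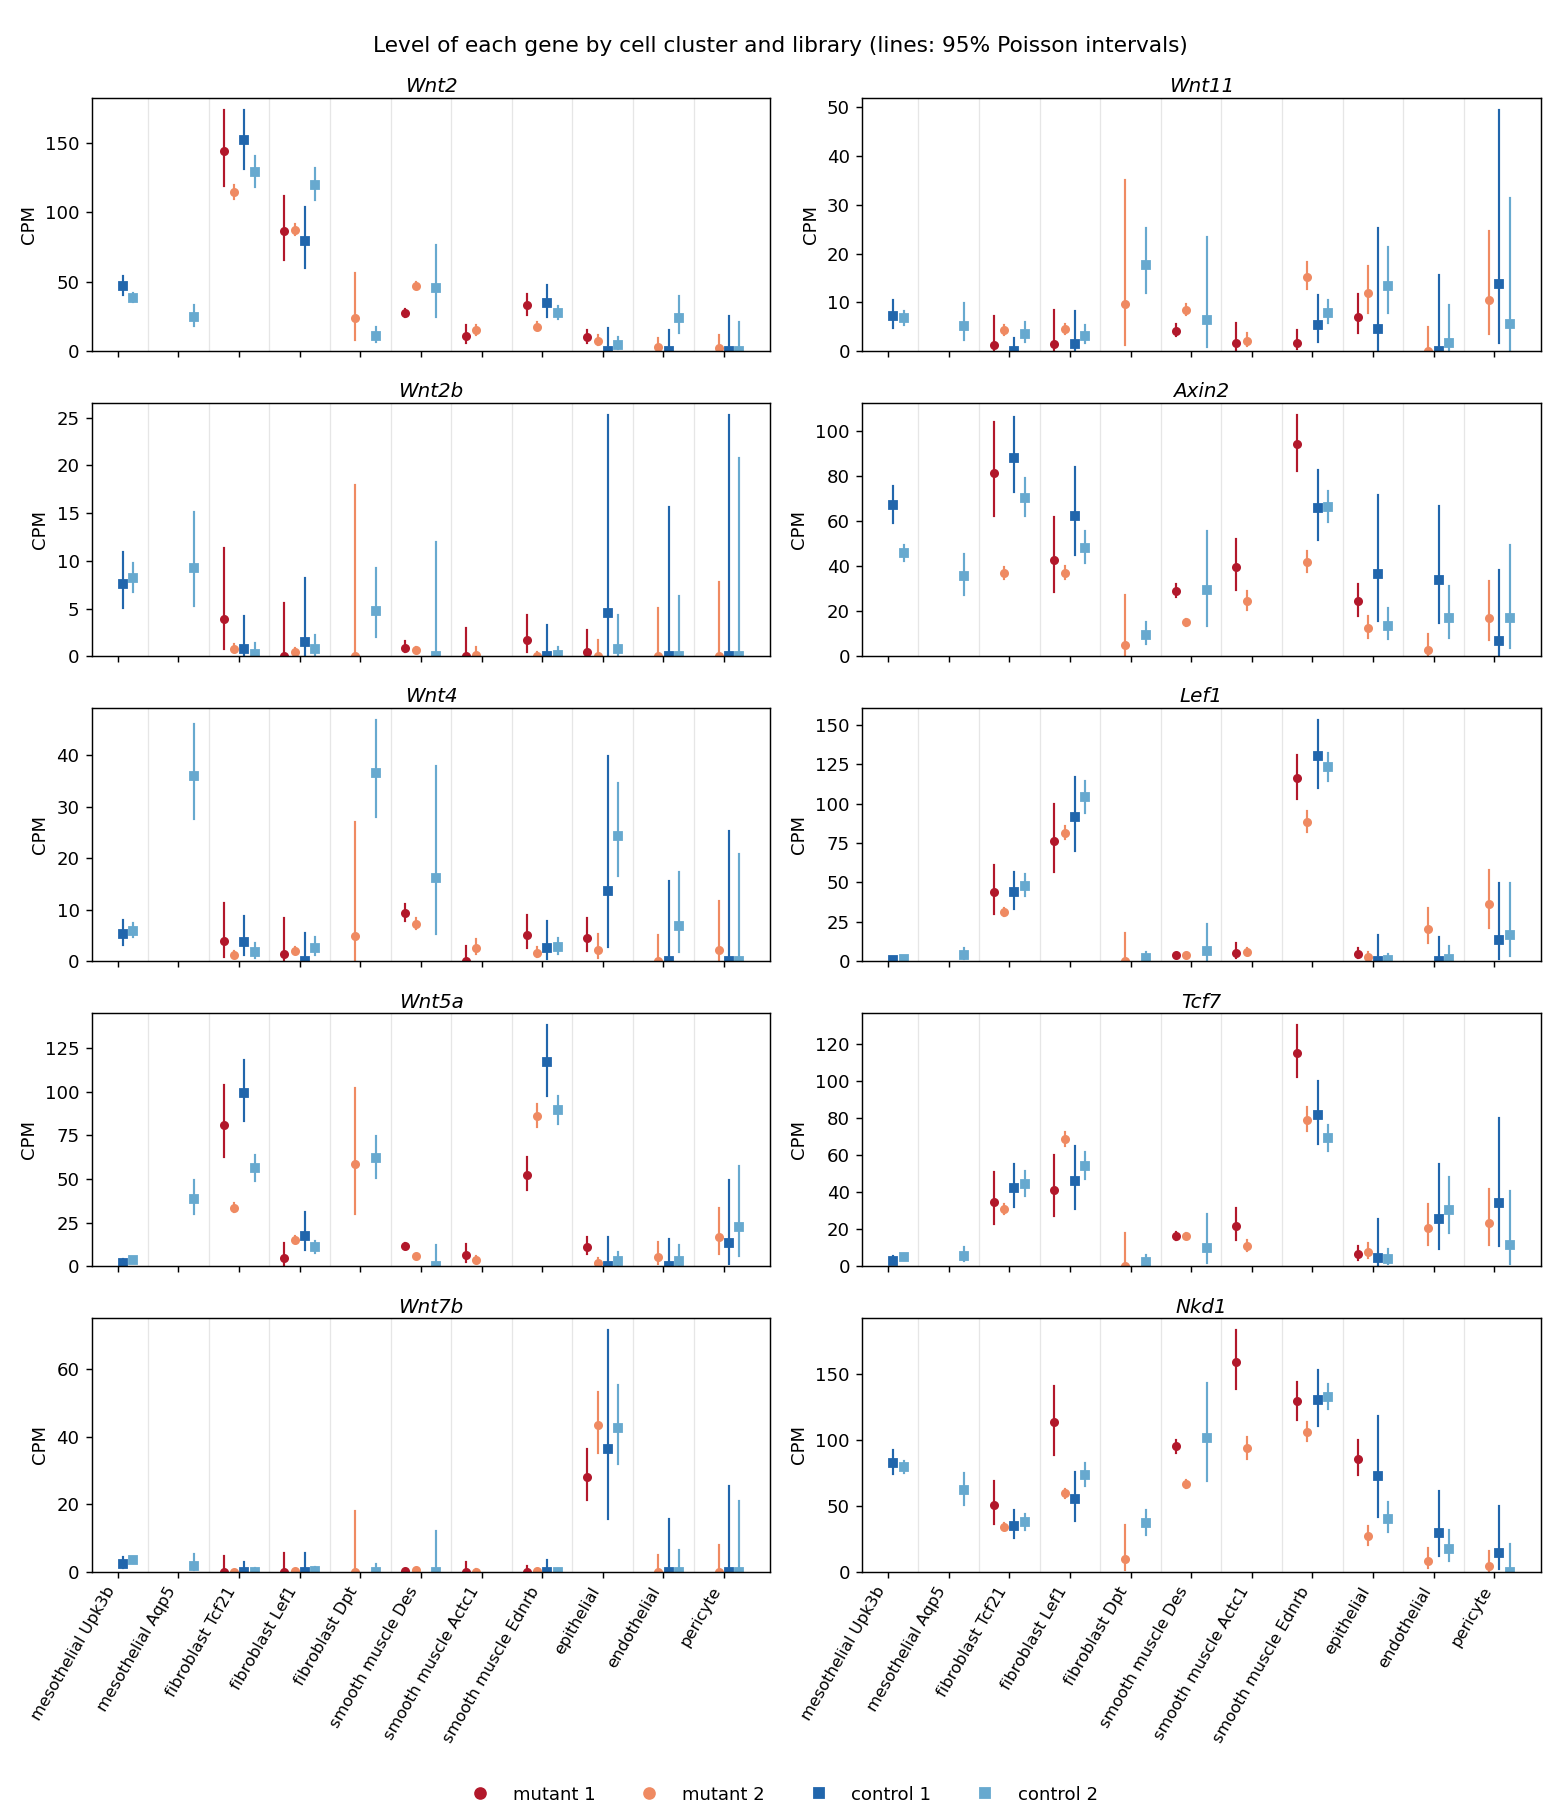
CPM (vertical axis, linear, own scale for each gene) of each gene by cluster and library, for clusters with at least 10 cells in the library, each named by its class and a leading gene. Every class name stands for cells like that type, points are library sums, lines are 95% exact Poisson intervals that cover counting error only, and the unnamed cluster is not drawn. Lef1 and Tcf7 were high in the Ednrb smooth muscle-like and Lef1 fibroblast-like clusters and at most 5.8 CPM in mesothelial-like clusters, in which Axin2 had at least 35.4 and Nkd1 at least 62 CPM.

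Axin2 (chromosome 11, 108920349 to 108950783, plus strand), the scaffold of the beta-catenin destruction complex that is widely used as a reporter of canonical signalling, had 38.6 and 28.7 CPM in mutants and 64.7 and 38.7 CPM in controls over all sorted cells. Mutant library 1 and control library 2 were almost level, and both mutants were below both controls (log2 change -0.54 ± 0.26 SE, edgeR adjusted p = 0.706). Over mesenchymal-like cells it had 40.9 and 29.5 CPM in mutants and 70.7 and 54.9 CPM in controls, with a gap between the groups (log2 change -0.76 ± 0.24 SE, unadjusted p = 0.0155, edgeR adjusted p = 0.390). In the Ednrb cluster alone the value was 0.08 (edgeR adjusted p = 1), from 93.9 and 41.9 CPM in mutants and 65.8 and 66 CPM in controls. The Des cluster of mutants had 29.1 and 15.1 CPM, and the mesothelial-like cells of controls had 65.8 and 44.7 CPM. Among fibroblast-like cells Axin2 had 62.0 and 36.7 CPM in mutants and 79.2 and 50.4 CPM in controls, with overlap (log2 change -0.36 ± 0.31 SE, edgeR adjusted p = 1). Library 1 of each genotype was above library 2 there, as it was for Wnt5a.

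Nkd1 (chromosome 8, 88521354 to 88594884, plus strand), an inhibitor that binds Dishevelled, had 97.7 and 60.2 CPM in mutants and 76.3 and 68.0 CPM in controls over all sorted cells. The mutants were at both extremes (log2 change 0.17 ± 0.25 SE, edgeR adjusted p = 0.980). It was found in every fibroblast-like, smooth muscle-like and mesothelial-like cluster with at least 10 cells: the Actc1 cluster of mutants had 159 and 93.3 CPM, the Des cluster of mutants 95 and 66.3 CPM, and the Ednrb cluster 129 and 106 CPM in mutants and 130 and 132 CPM in controls. Mesothelial-like cells of controls had 84.5 and 77.5 CPM. Fibroblast-like cells had 77.0 and 46.5 CPM in mutants and 41.6 and 51.6 CPM in controls, with overlap (log2 change 0.42 ± 0.28 SE, edgeR adjusted p = 1). The Tcf21 cluster was the lower of the larger fibroblast-like clusters in each library, with 50.2 and 34.0 CPM in mutants and 34.9 and 37.3 CPM in controls, beside 113 and 59.3 CPM in mutants and 54.7 and 73.0 CPM in controls in the Lef1 cluster.

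Lef1 (chromosome 3, 131110471 to 131224356, plus strand), a TCF/LEF factor, had 20.2 and 38.0 CPM in mutants and 33.4 and 32.8 CPM in controls over all sorted cells. Mutant library 1 was lowest and mutant library 2 highest (log2 change -0.06 ± 0.40 SE, edgeR adjusted p = 0.993). Over mesenchymal-like cells it had 22.7 and 39.4 CPM in mutants and 81.6 and 81.7 CPM in controls. Both mutants lay well below both controls, with a log2 change of -1.27 ± 0.36 SE that was not called (edgeR adjusted p = 0.353, and between 0.00172 and 1 over 13 alternatives, 2 of which called it). It was called without mutant library 2, at -1.87, with 1 mutant library left. The Des cluster of mutants had 3.76 and 4.12 CPM and the Actc1 cluster of mutants 5.63 and 6.17 CPM, while the Ednrb cluster had 116 and 88.6 CPM in mutants and 130 and 123 CPM in controls. With the Des and Actc1 clusters left out, the log2 change over mesenchymal-like cells was -0.05 (edgeR adjusted p = 1), and over the Ednrb cluster alone -0.21 (edgeR adjusted p = 1).

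In fibroblast-like cells Lef1 had 57.3 and 56.1 CPM in mutants and 60.2 and 62.5 CPM in controls. The mutants were below the controls by little, the 1 of the 8 genes tested there whose groups did not overlap with mutants lower, beside 14.5% of all 12167 genes tested and a share called of 0%, and the fitted log2 change was -0.02 ± 0.25 SE (edgeR adjusted p = 1). In the cluster that Lef1 led, although the Wnt pathway genes were left out of the clustering, it had 76.1 and 81.6 CPM in mutants and 91.6 and 104 CPM in controls, and in the Tcf21 cluster 43.8 and 31.0 CPM in mutants and 44.0 and 47.9 CPM in controls. Mesothelial-like cells of controls held 3 and 29 Lef1 UMIs, or 0.728 CPM (95% Poisson interval 0.15 to 2.13) and 1.82 CPM (1.22 to 2.61).

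Tcf7 (chromosome 11, 52252371 to 52283014, minus strand), a second TCF/LEF factor, had 28.4 and 37.9 CPM in mutants and 25.2 and 21.6 CPM in controls over all sorted cells. It was the 1 gene of the 10 with both mutants above both controls, and it was not called (log2 change 0.61 ± 0.29 SE, edgeR adjusted p = 0.704). Without mutant library 1 it passed, at a log2 change of 0.93 (edgeR adjusted p = 0.0391, the lowest of 12 alternatives, which reached 1), in a fit of 1 mutant library against 2 controls whose spread comes from the controls alone. Over mesenchymal-like cells the sign was the other, with both mutants below both controls at a log2 change of -0.49 ± 0.27 SE (edgeR adjusted p = 0.798), and with the Des and Actc1 clusters left out it was 0.43 (edgeR adjusted p = 1). The Ednrb cluster had 115 and 79.1 CPM in mutants and 81.8 and 69.0 CPM in controls, the Des cluster of mutants 16.4 and 16.2 CPM, and mesothelial-like cells of controls 3.16 and 5.34 CPM. The direction for Tcf7 thus followed which cells were summed. In fibroblast-like cells it had 36.8 and 49.4 CPM in mutants and 43.6 and 40.8 CPM in controls, with overlap (log2 change 0.18 ± 0.31 SE, edgeR adjusted p = 1).

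**Figure D4:**
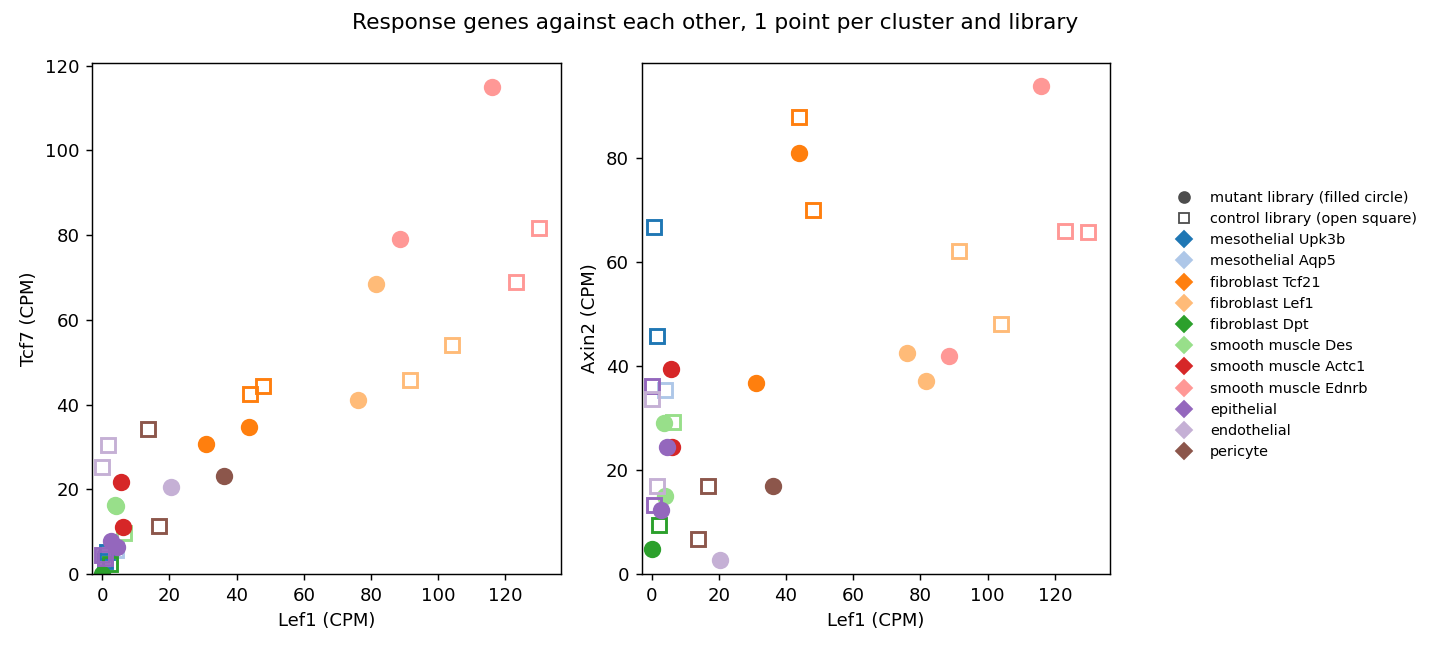
Tcf7 (left) and Axin2 (right) against Lef1, in CPM on linear axes, 1 point per cluster and library with at least 10 cells. Filled circles are mutant and open squares control libraries, and colours give the cluster, named by class and leading gene. Lef1 and Tcf7 went up together, whereas Axin2 reached 66.9 CPM in the Upk3b mesothelial-like cluster of control library 1 with Lef1 at 0.783 CPM.

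Counted over mesenchymal-like cells, 0 genes of the 9 tested were above and 5 were below the controls in both mutant libraries (Wnt2, Wnt5a, Axin2, Lef1 and Tcf7). Among all 14322 genes tested there, 13.1% were above and 20.8% below, and 0.014% were called. Of the 9 genes, 0 were called by edgeR, 3 (Wnt5a, Lef1 and Axin2) had an unadjusted p under 0.05, as 8.46% of all genes did, and DESeq2 called 1, Wnt5a. The median log2 change of the 9 genes was -0.49, beside 0.01 for all genes. In fibroblast-like cells the median of the 8 genes tested was -0.02, beside 0.01 for all genes. There 0 of the 8 genes had an unadjusted p under 0.05, beside 1.82% of all genes, 0 were called by DESeq2, and 0 were above the controls in both mutants, beside 8.18% of all genes. Wnt7b missed the filter on low counts over mesenchymal-like cells, and Wnt7b and Wnt2b missed it over fibroblast-like cells. Mesothelial markers summed to 298 and 223 CPM in smooth muscle-like cells of mutants and to 104 and 131 CPM in those of controls, cardiac markers to 52.1 and 125 CPM in mutants and to 1.73 and 10.7 CPM in controls, and erythroid markers to 813 and 24.1 CPM in mutants and to 76.1 and 5.85 CPM in controls. In fibroblast-like cells the mesothelial markers summed to 38.9 and 11.7 CPM in mutants and to 28.1 and 91 CPM in controls. Their part in the values above was not tested.

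**Figure D5:**
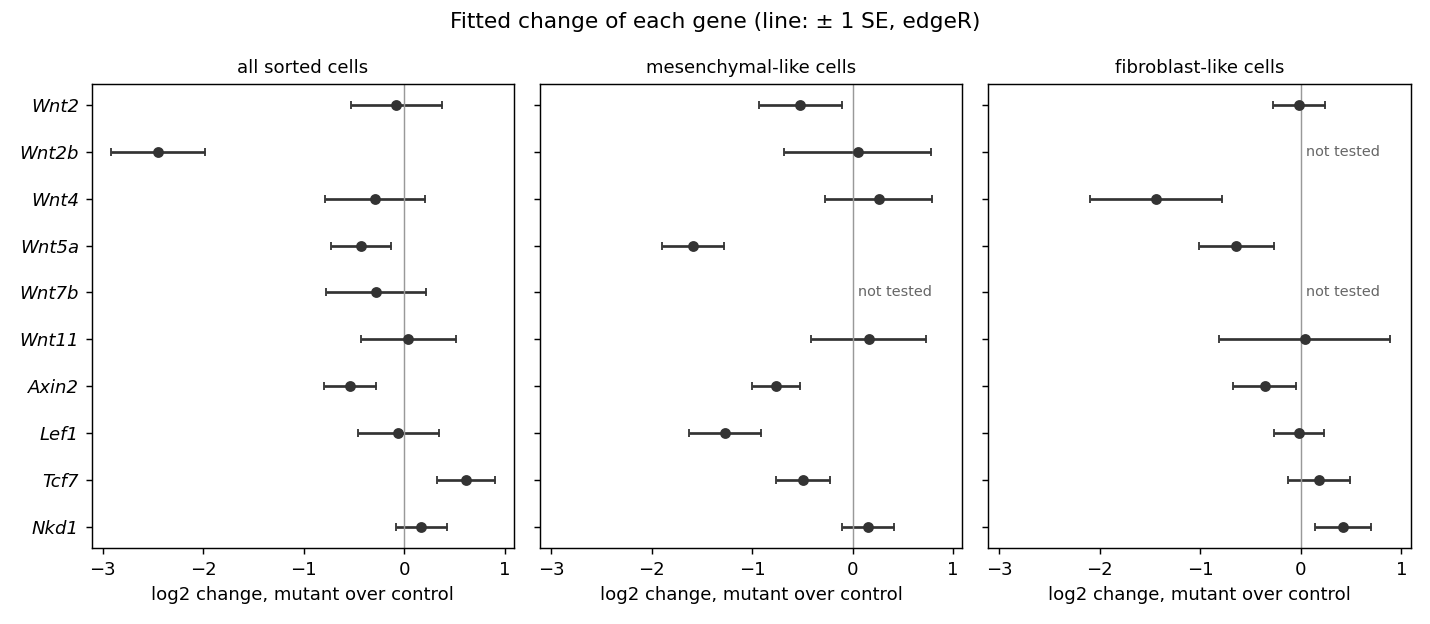
Fitted log2 change, mutant over control, of each gene (horizontal axis, 1 scale for all panels) with a line of 1 standard error on either side, for all sorted cells, mesenchymal-like cells and fibroblast-like cells (edgeR, 2 libraries per genotype). No change was called, and Wnt5a at -1.59 and Lef1 at -1.27 over mesenchymal-like cells had -0.64 and -0.02 over fibroblast-like cells.

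Across 14 sums of a class in a library with at least 20 cells each, Lef1 and Tcf7 were most alike among the 10 genes, with a Pearson correlation of log2(CPM + 1) of 0.98. Wnt5a was also like both, with 0.92 for Lef1 and 0.89 for Tcf7, while Axin2 and Nkd1 had 0.74 with each other and between 0.00 and 0.19 with Lef1 and Tcf7. Wnt7b ran opposite to Wnt5a, with -0.82. These points share libraries and classes, so the values are a description. Among 9294 genes, those most like Lef1 were Tcf7, Mtss2 and Ralgps2 (0.978, 0.978 and 0.976), and those most like Tcf7 after Lef1 were Tbx3os1 and Fam210b (0.97 and 0.966). Those most like Wnt5a were 1700021F13Rik, Pth1r and Dnm3os (0.974, 0.965 and 0.961), and those most like Wnt2 were Angptl4, Hoxa4 and Zfhx4 (0.957, 0.948 and 0.944). Wnt7b was closest to Pdzk1ip1, Arfgef3 and Esrp2 (0.991, 0.987 and 0.984), Axin2 to Senp7, Cep112 and Zfp61 (0.962, 0.962 and 0.961), and Nkd1 to Skil, Pura and Gprasp2 (0.961, 0.937 and 0.931).

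The other genes of the pathway were read from 6 lists, and no list gene was called in any of the 3 cell sets. Over all sorted cells, 10 of 19 ligands, 15 of 16 receptors, 8 of 13 secreted inhibitors, 20 of 20 cytoplasmic and nuclear genes, 3 of 3 ligand-processing genes and 19 of 21 response and feedback genes could be tested. Their median log2 changes were -0.29, -0.27, -0.49, 0.03, -0.20 and 0.08, in the same order, beside 0.03 for all genes. Of the ligands, Wnt9a had 6.73 and 2.74 CPM in mutants and 27.4 and 15.9 CPM in controls (log2 change -2.17 ± 0.41 SE, edgeR adjusted p = 0.139), and both mutants were far below both controls. Wnt9a was highest in mesothelial-like cells, at 46.6 and 34.3 CPM in controls. Smooth muscle-like cells had 8.17 and 5.4 CPM of it in mutants and 16.4 and 7.52 CPM in controls, and fibroblast-like cells 0 and 0.407 CPM in mutants and 2.01 and 3.67 CPM in controls. Of the receptors, Fzd4, which also binds Norrin, had 16.1 and 9.24 CPM in mutants and 53.1 and 38 CPM in controls (log2 change -1.80 ± 0.27 SE, edgeR adjusted p = 0.0803). Endothelial-like cells had 80.5 CPM of it in mutant library 2 and 182 and 126 CPM in controls, and mesothelial-like cells of controls had 79.1 and 72.1 CPM.

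Secreted inhibitors gave values on both sides. Sostdc1, which binds Lrp5 and Lrp6, had 1.77 and 1.39 CPM in mutants and 6.48 and 6.96 CPM in controls (log2 change -2.05 ± 0.36 SE, edgeR adjusted p = 0.118), and mesothelial-like cells of controls had 12.6 and 14 CPM. Sfrp2, a Frizzled-related Wnt-binding protein, had 152 and 146 CPM in mutants and 311 and 299 CPM in controls (log2 change -0.96 ± 0.28 SE, edgeR adjusted p = 0.326). The mesothelial-like cells of controls had 510 and 481 CPM of Sfrp2, and the smooth muscle-like cells had 183 and 236 CPM in mutants and 157 and 215 CPM in controls. Frzb, from the same family, had 3.82 and 2.45 CPM in mutants and 0.734 and 0.948 CPM in controls (log2 change 1.85 ± 0.47 SE, edgeR adjusted p = 0.257). Its level in smooth muscle-like cells was 4.81 and 4.87 CPM in mutants and 5.19 and 4.85 CPM in controls. These values lay close together in all 4 libraries, although the make-up of that class differed between the genotypes. Those of the controls rest on only 6 and 29 UMIs, in 31 and 245 cells, so their closeness says little. Wls, the carrier that brings Wnt ligands to the cell surface, had 268 and 110 CPM in mutants and 269 and 176 CPM in controls, with overlap (log2 change -0.20 ± 0.40 SE, edgeR adjusted p = 0.980).

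Of the other response genes, Trabd2b, a protease that inactivates Wnt ligands, had 24.7 and 29.1 CPM in mutants and 55.9 and 44.8 CPM in controls (log2 change -0.80 ± 0.26 SE, edgeR adjusted p = 0.401). Mesothelial-like cells of controls had 64.6 and 68.3 CPM of Trabd2b. Fibroblast-like cells had 70.2 and 41.5 CPM of it in mutants and 70.7 and 50.3 CPM in controls. Ccnd1, cyclin D1, had 125 and 63 CPM in mutants and 61.4 and 51.8 CPM in controls (log2 change 0.76 ± 0.30 SE, edgeR adjusted p = 0.530), and in smooth muscle-like cells 116 and 69.5 CPM in mutants and 27.7 and 19.9 CPM in controls. That class was mostly the Des cluster in mutants and the Ednrb cluster in controls, and the part of this in the gap was not tested. Myc had 11.8 and 18.6 CPM in mutants and 7.58 and 8.99 CPM in controls (log2 change 0.96 ± 0.38 SE, edgeR adjusted p = 0.547). Ccnd1 and Myc also respond to other signals. Ccnd1 was highest in endothelial-like cells, at 404 CPM in mutant library 2 and 558 and 596 CPM in controls. The small numbers and erythroid markers of endothelial-like cells, given above with Fzd4, apply here too. In fibroblast-like cells Ccnd1 had 57.3 and 42.2 CPM in mutants and 20.1 and 42.8 CPM in controls, with overlap (log2 change 0.66 ± 0.37 SE, edgeR adjusted p = 1). The response and feedback list had a median log2 change of -0.41 over mesenchymal-like cells and -0.04 over fibroblast-like cells, beside 0.01 for all genes in each. The other genes that the naming rule took from the lists over all sorted cells (Wnt5b, Notum, Porcn, Fzd3, Fzd5, Fzd7, Dkk2, Tcf7l1, Tle3, Dvl2 and Pygo1) had log2 changes between -1.07 and 0.37, with edgeR adjusted p between 0.553 and 1. Those it took in fibroblast-like cells had log2 changes between -2.83, for Wnt9a with 0 and 16 UMIs in mutants and 4 and 35 in controls, and 0.66, for Ccnd1, each with an edgeR adjusted p of 1.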

How the data were processed

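Lung cells of mouse embryos were profiled in 4 libraries, 2 per genotype, and grouped by sample title. The deposited values were whole-number UMI counts per gene and barcode, without normalization, made by the authors with Cell Ranger 6.0.2 on mm10, per the submitters' processing notes. The annotation release and whether strand was used in counting are not given in the sources used here. Genes of the same strand or the opposite one overlap Wnt2b (Gm43846), Wnt5a (Gm2670), Wnt7b (AU022754), Axin2 (Gm11670), Lef1 (Gm43352) and Tcf7 (A630014C17Rik) in GENCODE vM21 and are also in the files; without strand, reads of such pairs cannot be told apart. Locations are those of GENCODE (mm10, 1-based).

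Barcodes with at least 1000 genes and at most 15% mitochondrial UMIs passed, 8470 of 9586 after doublets were removed. Scrublet's automatic threshold marked 9 of 8733 barcodes and had not worked, so the highest-scoring 0.8% per 1000 barcodes of each library were removed. At most 4 barcodes of kept cells were shared by a pair of libraries. Cells were clustered in scanpy 1.11.5 (Leiden, resolution 0.4, 3000 variable genes, 30 components) without 90 Wnt pathway genes and 493 cell cycle genes, and classes were named from marker lists. Levels are given for classes or clusters with at least 10 cells in a library, as CPM with 95% exact Poisson intervals. PCR and capture noise are not covered by them. Class against class is a description, since classes come from the same cells.

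UMI counts were summed per library and tested with edgeR 4.0.16 (filterByExpr, TMM, quasi-likelihood, two-sided) over all genes, with Benjamini-Hochberg adjustment and a threshold of 0.05. On simulated counts with 2 libraries per group, the test recovered 12, 84, 100 and 100% of genes changed 2-, 4-, 8- and 16-fold over all sorted cells. The rates were 20, 88, 98 and 100% over mesenchymal-like cells and 18, 94, 98 and 100% in fibroblast-like cells. Only genes with an expected count over 20 in the smallest library were changed. Thus the rates do not cover members at lower counts, such as Wnt2b and Wnt7b over all sorted cells and Wnt4 and Wnt11 in fibroblast-like cells. The simulated counts left out the quasi-likelihood part of the spread, so the rates may be too high for all genes. Other genes were named by a rule: from each pathway list up to 4 genes with the smallest p over all sorted and over fibroblast-like cells and the 3 genes most correlated with each member that reached 20 CPM. The members and lists were chosen with earlier results of these data known. Alternatives were DESeq2 1.42.0, other scaling, filters and clusterings, a replicate block and leaving out each library. Replicate libraries of a genotype differed well beyond sampling noise. The labels tie same-numbered libraries by number only. Library 1 of each genotype had fewer cells at more depth, with a median of 38719 UMIs per cell in mutants and 29175 in controls. Library 2 had 15957 in mutants and 14322 in controls, and a shared batch was not tested.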

Additional observations from a re-analysis of the deposited data

How the results depend on the processing

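With 2 libraries per genotype the counts of called genes moved with the settings, and the cause was not tested. Over all sorted cells 58 genes were called, against 497 with DESeq2, 685 with no filter on low counts, 525 with the replicate block and 74 to 1097 with a library left out. Over mesenchymal-like cells 2 genes were called, against 373 with DESeq2, 821 with no filter, 81 with the block, 0 to 718 with a library left out, and 0 with doublets kept, with Wnt genes kept in clustering, in the Ednrb cluster only, and with the Des and Actc1 clusters left out. Over fibroblast-like cells edgeR called 0 genes (222 at an unadjusted p under 0.05), against 3 with DESeq2, 94 with no filter, 3 with the block and 0 to 89 with a library left out. Leaving out mutant library 1 gave 1097, 252 and 4 calls in the 3 cell sets, mutant library 2 gave 486, 718 and 0, control library 1 gave 74, 4 and 89, and control library 2 gave 116, 0 and 27. Each of these fits leaves 1 library in a genotype, whose spread is assumed to be that of the other. Deviations of same-numbered libraries correlated at 0.362, 0.182 and 0.251 in these sets, but with only 2 pairs, which the labels do not tie together, this is no pairing. The block called Wnt2b over all sorted cells (log2 change -2.49, adjusted p = 0.0364) and no other of the 10 genes.

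Of 342 recomputed values for the 10 genes, 284 kept their direction and their side of the threshold, 12 passed the threshold and 46 turned direction. With a library left out, the values that turned had these ranges of log2 change: over all sorted cells -0.96 to 0.46 for Wnt2, -0.78 to 0.46 for Wnt4, -0.74 to 0.14 for Wnt7b, -0.68 to 0.49 for Wnt11, -0.81 to 0.42 for Lef1 and -0.03 to 0.35 for Nkd1; over mesenchymal-like cells -0.33 to 0.44 for Wnt2b, -0.21 to 1.29 for Wnt4, -0.55 to 1.1 for Wnt11 and -0.09 to 0.39 for Nkd1; over fibroblast-like cells -0.15 to 0.12 for Wnt2, -1.54 to 0.44 for Wnt11, -0.19 to 0.13 for Lef1 and -0.28 to 0.49 for Tcf7. With the block, Wnt11 turned to -0.01 and -0.003 over all sorted and fibroblast-like cells and Wnt2b to -0.09 over mesenchymal-like cells. With no filter, Wnt2 and Lef1 were 0.03 and 0.02 over fibroblast-like cells. At clustering resolution 0.8, Wnt2b, Wnt4 and Wnt11 were -0.08, -0.005 and -0.003 over mesenchymal-like cells, and Wnt2, Wnt11, Tcf7 and Nkd1 were 0.14, -0.23, -0.22 and -0.03 over fibroblast-like cells. That setting also changed which cells were summed: clusters of 623, 541 and 457 cells, nearest to fibroblasts, stayed unnamed and were left out. The one of 541 cells had Lef1 and Tcf7 among its leading genes. Fibroblast-like cells fell from 53 and 2236 to 27 and 1256 in mutants and from 76 and 422 to 42 and 265 in controls. With Wnt genes kept in clustering, Wnt11 was -0.19 over fibroblast-like cells.

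The following were chosen after seeing the data. With the Des and Actc1 clusters left out of mesenchymal-like cells, Wnt2, Wnt4, Wnt11 and Tcf7 were 0.02, -0.73, -0.001 and 0.43, and Myrf was -1.33, beside 1 with all clusters, in which its level was higher in smooth muscle-like cells of mutants. In the Ednrb cluster only, Axin2, Tcf7 and Nkd1 were 0.08, 0.46 and -0.07, and Myrf -1.43. In the Tcf21 fibroblast-like cluster only, Tcf7 was -0.33, and in the Lef1 cluster only, Wnt5a was 0.05. Depth limited Wnt2b, Wnt7b, Wnt4 and Wnt11 most, with as few as 20, 17, 36 and 40 UMIs in a library.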
